A study of Mus musculus with 7 samples.

Results

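The transport proteins of the blood-brain barrier were represented by 10 gene rows, Slc2a1, Slc7a5, Slc38a5, Slc16a1, Slco1c1, Slco1a4, Slc22a8, Abcb1a, Abcg2 and Abcc4, of 32531 gene rows in each file. The rows were chosen by symbol, as carriers and efflux pumps known from brain endothelium, and all 10 passed the filter on low counts that left 17654 genes for testing. Adult mice of the Stard8-TRAP ES2342 line, without treatment, gave midbrain RNA. They carry the ribosomal protein Rpl10a joined to EGFP, driven by Stard8 regulatory DNA. In translating ribosome affinity purification (TRAP), beads with antibodies against EGFP capture tagged ribosomes and the RNA on them. There were 3 libraries of captured RNA (IP; replicates 1, 2 and 4) and 4 of RNA left behind by the beads (unbound; replicates 1 to 4). Both came from mice of the same tagged line, and an IP from mice without the tag was not analysed here. The labels do not say whether each library is a separate animal or a pool, so the p-values measure the spread between these libraries, which may be technical.

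Endothelial cells of brain capillaries are sealed by tight junctions, so most polar nutrients, hormones and drugs cross them only on carriers. Carriers of the SLC and SLCO families move glucose, amino acids, monocarboxylates, thyroid hormone and organic anions. Pumps of the ABC family use ATP to return lipophilic drugs and conjugates to the blood. Several of these proteins are not confined to endothelium in the mouse brain: Slc16a1 is also known from glia, Slco1c1 from astrocytes and choroid plexus, and Slc22a8 from choroid plexus and the arachnoid.

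Counts in genes per library ran from 52052340 to 76114634, so that 3 counts correspond to between 0.0376 and 0.059 CPM (the count divided by the effective library size and scaled to a common total). Such floors cover counting error only. Stard8, whose regulatory sequence drives the tag, had 388, 440 and 227 CPM in IP 1, 2 and 4, against 3.51, 4.35, 4.18 and 4.89 CPM in unbound 1 to 4. The submitters name neurons as the profiled cells. In IP, 12 of 12 pan-neuronal markers were lower (7 without IP 2), and 20 of 20 endothelial markers were higher. Whether a subset of neurons was captured was not tested. The summed share of the endothelial markers was 0.352% ± 0.0599 in IP libraries and 0.00335% ± 0.000404 in unbound libraries (SD, n = 3 and 4; exact permutation test, two-sided, p = 0.0286, the smallest that 35 splits allow). The marker list was chosen with earlier results of these data known, so this p is no independent support. IP 4 had the lowest endothelial share of the IP libraries, 0.283%, against 0.388% in IP 1 and 0.385% in IP 2. Its share of pan-neuronal counts was 0.799%, against 0.399% in IP 1, 0.444% in IP 2 and between 1.44% and 2.17% in the unbound libraries. Pericyte and smooth muscle markers rose in 14 of 14, to between 0.400% and 0.633% of counts in IP, against between 0.00351% and 0.00566% in unbound. Of all tested genes, 20.5% were called higher in IP and 18.9% lower. Microglia and macrophage markers rose in 12 of 12, astrocyte markers in 8 of 12 (3 within the libraries of index ACAGTG), and fibroblast and meningeal markers in 6 of 11 tested. Choroid plexus and ependymal markers were called higher in 3 of 11, near the share over all genes, with a median log2 fold change of 0.54. Oligodendrocyte markers fell in 11 of 12 and erythroid markers in 3 of 3 (1 within index ACAGTG and 1 with a filter of 5 CPM). The shares compare captured RNA with RNA left behind by the beads, so they give neither the number of cells of a type nor their RNA per cell.

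Of the 10 transporters, 9 were higher in IP, where 20.5% of all tested genes were called higher and 39.4% in either direction, and the monocarboxylate carrier Slc16a1 was not called. Their log2 fold changes ran from 0.48 for Slc16a1 to 6.42 for Slc38a5, with a median of 4.996, beside a median of -0.10 over all tested genes. In all 10, every IP library lay above every unbound library, as it did in 25.1% of tested genes; the opposite held for 0 of the 10 and for 22.7% of tested genes. The number called lower was 0, also 0 at an unadjusted p under 0.05 in edgeR and 0 by DESeq2. Together the 10 rows took 0.265%, 0.277% and 0.171% of the counts in IP 1, 2 and 4, against 0.0118%, 0.00759%, 0.0139% and 0.0107% in unbound 1 to 4. The count of 9 was also reached in the other fits. Of the fits within an index sequence, that of ACAGTG set IP 1 and 2 against unbound 1 and 2. That of GTGAAA had IP 4 as its only IP library, against unbound 3 and 4; it assumes that IP 4 varies as the unbound pair does, so its values are given without a p and are no replicate check.

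**Figure D1:**
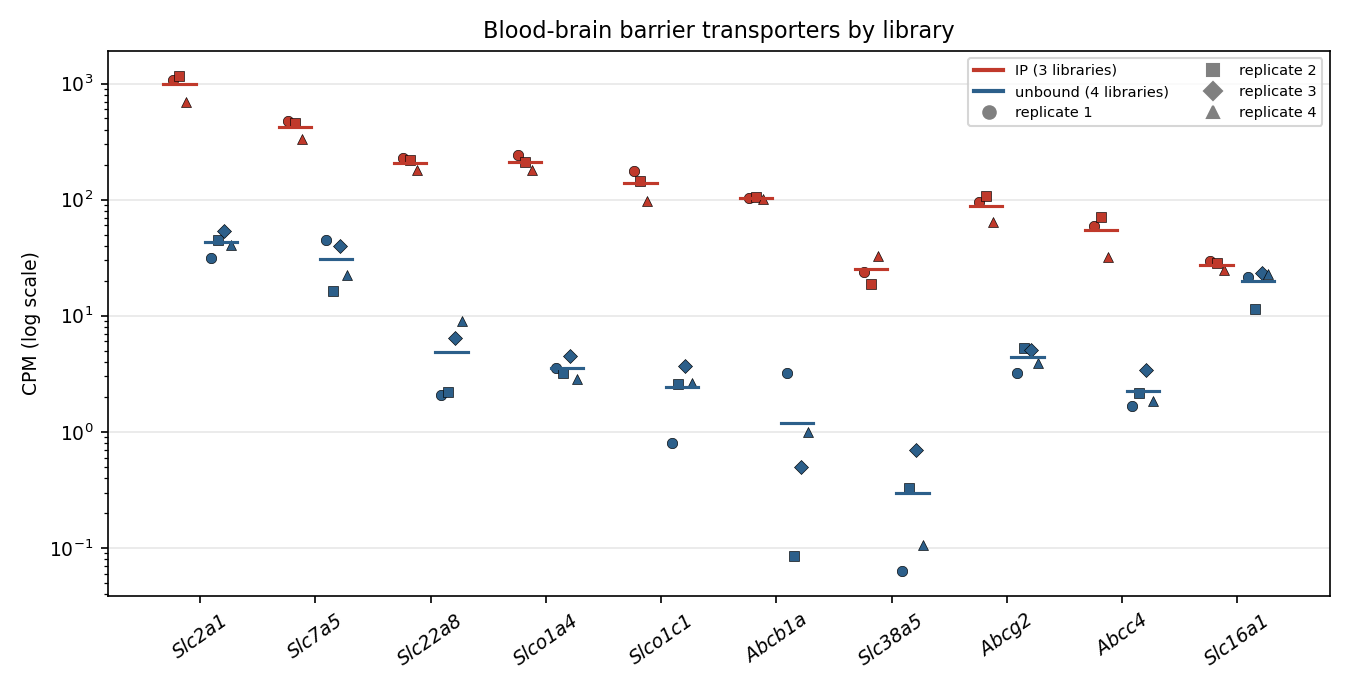
CPM of each transporter in the 3 IP libraries (red, left of each pair) and the 4 unbound libraries (blue) on a log axis, with the group mean as a bar and the replicate number as the marker shape; genes run from the highest to the lowest level per kilobase in IP. Slc2a1 has the highest mean in both groups, although Slc7a5 lies above it in unbound 1, Slc16a1 is the gene whose groups nearly meet, at 24.7 CPM in IP 4 and 23.3 CPM in unbound 3, and the unbound values of Abcb1a and Slc38a5 scatter most.

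Among the nutrient carriers, Slc2a1 encodes GLUT1, the facilitative carrier through which glucose enters the brain. It had 1074, 1172 and 699 CPM in IP 1, 2 and 4, against 31.7, 45.1, 53.9 and 40.3 CPM in unbound 1 to 4. The lowest IP library, IP 4, was still far above the highest unbound library. The fold change was 23.0 (log2 4.52 ± 0.30, SE; adjusted p = 2.5e-06); the log2 value was 4.87 within index ACAGTG and 3.91 for IP 4 alone against the unbound pair of index GTGAAA. The gene lies on chromosome 4 from 119108711 to 119137983 (plus strand, GRCm38), and an exon of the antisense gene Gm12868 overlaps its exons. How the counting treated strand is not given in the sources used here. It is therefore not known whether reads in the overlap were counted for Slc2a1 or left out as ambiguous.

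Slc7a5 encodes LAT1, the exchanger for large neutral amino acids that also carries L-DOPA and thyroid hormone (chromosome 8, 121881150 to 121907694, minus strand). It had 473, 461 and 334 CPM in IP 1, 2 and 4, against 45.2, 16.3, 40.2 and 22.4 CPM in unbound 1 to 4. The groups were well apart, and the unbound libraries spread over a wider relative range than the IP libraries. The log2 fold change was 3.77 ± 0.37 (adjusted p = 2.8e-05), the smallest of the 9 called transporters. LAT1 works only as a heterodimer with the glycoprotein 4F2hc, the product of Slc3a2. Slc3a2 had 106, 92.6 and 116 CPM in IP 1, 2 and 4, against 16.7, 27.5, 38.5 and 34.6 CPM in unbound 1 to 4. It rose by less than the light chain did, by 1.84 ± 0.28 on the log2 scale (adjusted p = 0.000603); the difference between the partners was not tested.

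Slc38a5 encodes SNAT5, a sodium-coupled carrier of glutamine and other neutral amino acids (chromosome X, 8271133 to 8280179, plus strand). It was the least abundant transporter in unbound RNA. Counts were 1796, 1084 and 1653 in IP 1, 2 and 4, against 5, 19, 37 and 6 in unbound 1 to 4. These correspond to 24.0, 18.9 and 32.5 CPM in IP, against 0.0627, 0.326, 0.702 and 0.106 CPM in unbound. In contrast to Slc2a1 and Slc7a5, its highest IP value was in IP 4. The fold change was the largest of the 10 (log2 6.42 ± 0.70, adjusted p = 5.5e-05), but hardly above that of Abcb1a (6.40 ± 0.84). Their order depended on the libraries used: without unbound 3 Slc38a5 was 7.27 and Abcb1a 6.15, and without unbound 1 Slc38a5 was 6.06 and Abcb1a 7.61.

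Slc16a1 encodes MCT1, which carries lactate, pyruvate and ketone bodies (chromosome 3, 104638668 to 104658462, plus strand). It had 29.4, 28.3 and 24.7 CPM in IP 1, 2 and 4, against 21.4, 11.4, 23.3 and 23.0 CPM in unbound 1 to 4. The groups did not overlap, but unbound 2 alone lay well below the IP libraries. Its change, 0.48 ± 0.28 on the log2 scale, missed the threshold (adjusted p = 0.201, and between 0.158 and 0.361 over the alternatives with 2 or more libraries in each group). Of all tested genes, 68.3% had a lower log2 fold change. Basigin, Bsg, the membrane protein that carries MCT1 to the cell surface, had 1185 ± 107 CPM in IP and 303 ± 106 CPM in unbound (SD, n = 3 and 4), and it rose by 1.97 ± 0.29 on the log2 scale (adjusted p = 0.000436). Embigin, Emb, a related chaperone of monocarboxylate carriers, had 16.6 ± 8.96 CPM in IP and 38.6 ± 6.60 CPM in unbound, and fell by 1.22 on the log2 scale (adjusted p = 0.0177). That call was lost without IP 1 (adjusted p = 0.0752) and without IP 2 (adjusted p = 0.0867), of a range between 0.000401 and 0.0867 over its alternatives. Astrocyte markers together took between 0.256% and 0.312% of counts in IP, against between 0.100% and 0.197% in unbound, and oligodendrocyte markers between 0.133% and 0.191% in IP, against between 0.584% and 0.772% in unbound; their part in the Slc16a1 value was not tested.

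The organic anion carriers Slco1c1 and Slco1a4 both lie on chromosome 6, at 141524368 to 141570177 (plus strand) and 141805440 to 141856199 (minus strand). Slco1c1 encodes OATP1C1, a high-affinity carrier of thyroxine. Slco1a4 encodes OATP1A4, a carrier of bile salts, steroid conjugates and many drugs. Their promoter sequences are shown because the pair had nearly the same fold change and shared a run of bases. The RefSeq table (GRCm38.p6) held windows for 9 of the 10 transporters, 12 windows in all. The sequences are the 250 bases before the transcript start, 5′ to 3′ on the gene's strand, with the shared run in capitals.

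Slco1c1 (chr6:141524104-141524353, plus strand): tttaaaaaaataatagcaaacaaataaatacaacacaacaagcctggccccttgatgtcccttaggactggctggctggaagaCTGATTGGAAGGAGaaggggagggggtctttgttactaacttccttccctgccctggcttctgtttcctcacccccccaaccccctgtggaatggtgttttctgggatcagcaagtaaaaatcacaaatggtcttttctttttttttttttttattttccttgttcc
Slco1a4 (chr6:141856221-141856470, minus strand): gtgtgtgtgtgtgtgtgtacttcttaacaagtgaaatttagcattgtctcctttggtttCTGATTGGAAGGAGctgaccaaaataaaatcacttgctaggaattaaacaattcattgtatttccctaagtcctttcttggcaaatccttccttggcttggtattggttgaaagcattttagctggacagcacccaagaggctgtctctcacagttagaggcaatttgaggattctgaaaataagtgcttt

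The shared run, CTGATTGGAAGGAG, was 14 bases long and was the longest of 62 pairs of windows from different transporters. It began at base -167 of Slco1c1 and at base -191 of Slco1a4, counted from the transcript start, in the same orientation. Of 32851 windows in the table, 2 (0.00609%) held it on either strand, and these were the windows of Slco1c1 and Slco1a4. It contains a match to CCAAT on the opposite strand that shares its last bases with a match to GGAAG. The run was searched for after the fold changes were known, and a match is a description of these windows, not a binding site.

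Slco1c1 had 177, 145 and 97.3 CPM in IP 1, 2 and 4, against 0.802, 2.56, 3.66 and 2.65 CPM in unbound 1 to 4. Unbound 1 was the low library, and IP 4 the lowest of its group. The fold change was 57.9 (log2 5.86 ± 0.48, adjusted p = 7.9e-06); the log2 value was 6.59 within index ACAGTG and 4.97 for IP 4 alone in index GTGAAA. Slco1a4 had 243, 213 and 181 CPM in IP 1, 2 and 4, against 3.52, 3.21, 4.54 and 2.88 CPM in unbound 1 to 4. Both groups were tight and far apart. Its fold change was 60.0 (log2 5.91 ± 0.27, adjusted p = 4.4e-07), with the smallest p of the 10 transporters. Of the 50-base stretches of its annotated transcripts, 1.61% also occur in other genes, chiefly its close relative Slco1a5. Reads from such stretches that aligned to more than 1 place were left out of the counts. Slco1a5 itself had 5, 0 and 0 counts in IP 1, 2 and 4, against 0, 0, 2 and 0 in unbound 1 to 4, and was not tested.

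Slc22a8 encodes OAT3, an organic anion exchanger that clears drugs and metabolites from the brain (chromosome 19, 8591254 to 8611835, plus strand). It had 228, 217 and 179 CPM in IP 1, 2 and 4, against 2.08, 2.18, 6.47 and 8.93 CPM in unbound 1 to 4. The unbound libraries fell by index sequence, with the pair of index ACAGTG (unbound 1 and 2) below the pair of index GTGAAA (unbound 3 and 4). The log2 fold change was 5.41 ± 0.53 (adjusted p = 2.6e-05) over all libraries, 6.71 within index ACAGTG and 4.55 for IP 4 alone in index GTGAAA. IP 4 was also the IP library with the lowest endothelial share. Slc22a6, which encodes the related OAT1 and marks meningeal fibroblasts, had 3.01, 3.80 and 7.92 CPM in IP 1, 2 and 4, against 0.150, 2.49, 3.74 and 5.03 CPM in unbound 1 to 4 (log2 fold change 0.78 ± 0.81, adjusted p = 0.472). Fibroblast and meningeal markers together took between 0.0104% and 0.0141% of counts in IP, against between 0.00245% and 0.00653% in unbound, and choroid plexus and ependymal markers between 0.0125% and 0.0316% in IP, against between 0.00637% and 0.00821% in unbound. Their part in the Slc22a8 value was not tested.

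The efflux pumps were led by Abcb1a, which encodes P-glycoprotein, the pump that keeps many lipophilic drugs out of the mouse brain (chromosome 5, 8660077 to 8748575, plus strand). It had 104, 105 and 101 CPM in IP 1, 2 and 4, against 3.20, 0.0859, 0.493 and 1.01 CPM in unbound 1 to 4. The IP values were the closest together of any transporter, whereas the unbound counts ran from 5 in unbound 2 to 255 in unbound 1. The log2 fold change was 6.40 ± 0.84 (adjusted p = 0.000203), the widest error of the 10, and without unbound 1 it was 7.61; it was 5.97 within index ACAGTG and 7.08 for IP 4 alone in index GTGAAA. Of its 50-base stretches, 17.6% also occur in other genes, chiefly its paralogue Abcb1b, so part of its reads may be missing from the row. The exon of an antisense gene, Gm42686, overlaps it as well. Abcb1b, the second P-glycoprotein gene of rodents, had 2.72, 3.57 and 3.11 CPM in IP 1, 2 and 4, against 2.27, 1.58, 1.04 and 1.82 CPM in unbound 1 to 4 (log2 fold change 0.90 ± 0.47, adjusted p = 0.152). In unbound 2 its 92 counts exceeded the 5 counts of Abcb1a.

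Abcg2 encodes the breast cancer resistance protein, which pumps drugs and urate (chromosome 6, 58584523 to 58695676, plus strand). It had 94.5, 107 and 64.4 CPM in IP 1, 2 and 4, against 3.20, 5.29, 5.11 and 3.94 CPM in unbound 1 to 4, a log2 fold change of 4.34 ± 0.29 (adjusted p = 2.5e-06). Abcc4 encodes MRP4, a pump for conjugates and cyclic nucleotides (chromosome 14, 118482692 to 118706219, minus strand). It had 59.6, 71.5 and 31.8 CPM in IP 1, 2 and 4, against 1.68, 2.15, 3.38 and 1.85 CPM in unbound 1 to 4, a log2 fold change of 4.59 ± 0.37 (adjusted p = 7.2e-06), which was 5.10 within index ACAGTG and 3.62 for IP 4 alone in index GTGAAA. Both pumps had their lowest IP value in IP 4, and neither overlapped between the groups.

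Levels were set side by side as CPM per kilobase of exon, with exon lengths from GENCODE M21; the annotation behind the counts is not given in the sources used here. In IP the order was Slc2a1 (280 ± 71.2), Slc7a5 (114 ± 20.8), Slc22a8 (53.2 ± 6.60), Slco1a4 (33.1 ± 4.82), Slco1c1 (26.9 ± 7.69), Abcb1a (18.9 ± 0.394), Slc38a5 (11.2 ± 3.07), Abcg2 (10.9 ± 2.69), Abcc4 (8.5 ± 3.19) and Slc16a1 (6.21 ± 0.551) CPM per kilobase (SD, n = 3). The ranges of neighbours overlapped from Slco1a4 to Abcb1a and again from Slc38a5 to Slc16a1, and were apart between the other neighbours. In unbound RNA Slc2a1 (12.2 ± 2.64) and Slc7a5 (8.37 ± 3.74) were again highest, with ranges that overlapped. Slc16a1 came next there (4.46 ± 1.28) with a range above that of Slc22a8 (1.26 ± 0.862), which followed. The remaining 6 lay between 0.134 ± 0.130 for Slc38a5 and 0.551 ± 0.112 CPM per kilobase for Slco1a4 (SD, n = 4), and each overlapped its neighbour.

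Each transporter was then set against the endothelial markers of the same library, by a fit over all genes in which libraries were scaled to the summed counts of the 20 markers. The log2 fold changes of the single markers ran from 3.60 to 7.95 with a median of 6.93, so this sum averages over genes that differ among themselves; of the markers themselves 3 were called higher and 2 lower than their sum. Against the sum, 6 of 10 transporters were lower, where 96.4% of all tested genes were lower and 0.142% were higher. The number higher was 0 (0 at an unadjusted p under 0.05, and 0 by DESeq2). With other settings the number lower was between 5 and 7.

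**Figure D2:**
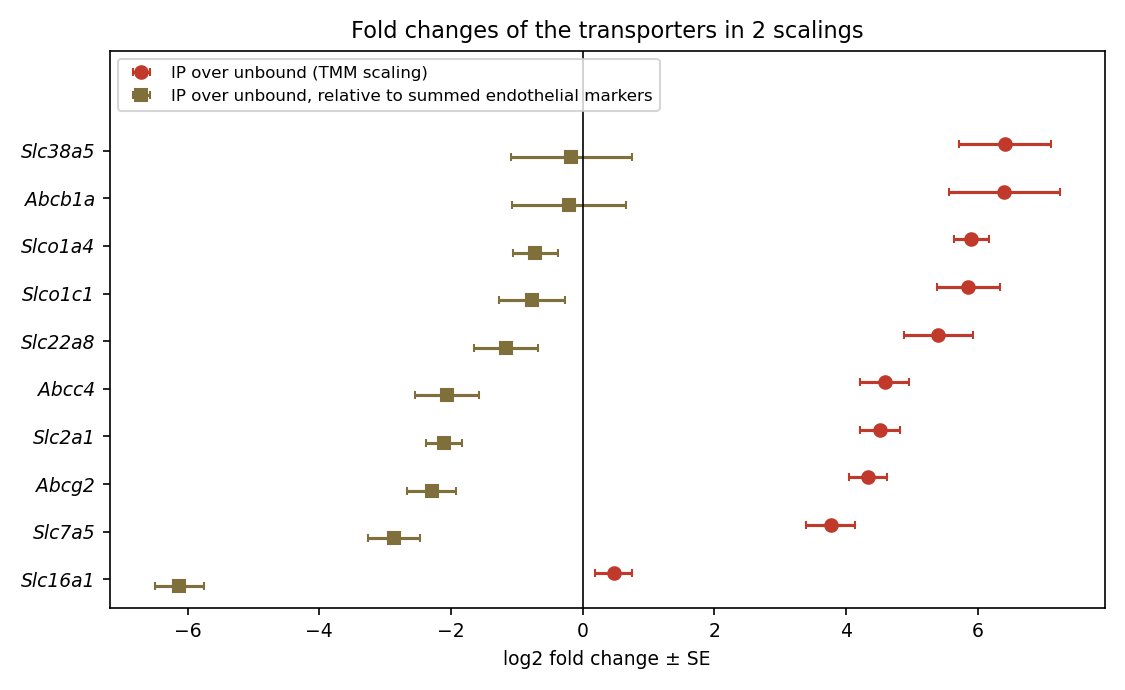
Log2 fold change of IP over unbound for each transporter with its SE, from the fit with TMM scaling (red circles) and from the fit scaled to the summed endothelial markers (olive squares). All 10 circles lie right of 0; the squares run from near 0 for Slc38a5 and Abcb1a to -6.12 for Slc16a1.

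The 6 were Slc16a1, Slc7a5, Abcg2, Slc2a1, Abcc4 and Slc22a8. Slc16a1 counted 8.01, 8.04 and 8.55 per 1000 endothelial marker counts in IP 1, 2 and 4, against 664, 347, 670 and 608 in unbound 1 to 4. Its IP values were nearly equal, and its relative log2 fold change was -6.12 ± 0.37 (adjusted p = 1.1e-08). Slc7a5 counted 129, 131 and 115 per 1000 in IP, against 1401, 498, 1157 and 593 in unbound (-2.87 ± 0.39, adjusted p = 1.9e-05). Slc2a1 counted 293, 333 and 242 per 1000 in IP, against 983, 1378, 1549 and 1068 in unbound (-2.11 ± 0.27, adjusted p = 1.0e-05). For these carriers every unbound library lay above every IP library, a separation whose share over all genes was not computed on this scale.

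Abcg2 had a relative log2 fold change of -2.29 ± 0.37 (adjusted p = 7.6e-05) and Abcc4 of -2.06 ± 0.49 (adjusted p = 0.00149). Slc22a8 counted 62.1, 61.7 and 61.8 per 1000 endothelial marker counts in IP 1, 2 and 4, against 64.5, 66.6, 186 and 236 in unbound 1 to 4. In unbound 1 and 2 it stood close to the IP ratio, and in unbound 3 and 4 well above it. Its call (-1.16 ± 0.49, adjusted p = 0.0367) was lost without unbound 3 (adjusted p = 0.092), without unbound 4 (adjusted p = 0.137), without any single IP library (adjusted p between 0.0804 and 0.0818) and with the index sequence as a covariate (-0.71, adjusted p = 0.128). With the replicate block it was -0.69 (adjusted p = 0.192).

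The other 4 transporters were not called different from the endothelial sum. Slco1a4 counted 66.1, 60.4 and 62.5 per 1000 in IP, against 109, 98.1, 130 and 76.1 in unbound (-0.72 ± 0.34, adjusted p = 0.0576). It was called without unbound 2 (adjusted p = 0.0449), without unbound 4 (adjusted p = 0.036) and by DESeq2 (adjusted p = 0.0361). Slco1c1 had -0.76 ± 0.50 (adjusted p = 0.155) and was called without unbound 1 (-1.05, adjusted p = 0.0136). Abcb1a counted 28.4, 29.8 and 34.9 per 1000 in IP, against 99.1, 2.62, 14.2 and 26.6 in unbound (-0.21 ± 0.87, adjusted p = 0.819; 1.09 without unbound 1, adjusted p = 0.155). Slc38a5 counted 6.53, 5.36 and 11.2 per 1000 in IP, against 1.94, 9.96, 20.2 and 2.80 in unbound (-0.17 ± 0.92, adjusted p = 0.859; 0.67 without unbound 3, adjusted p = 0.509). With errors of this size, differences of several-fold from the endothelial sum were not detectable for Abcb1a and Slc38a5.

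**Figure D3:**
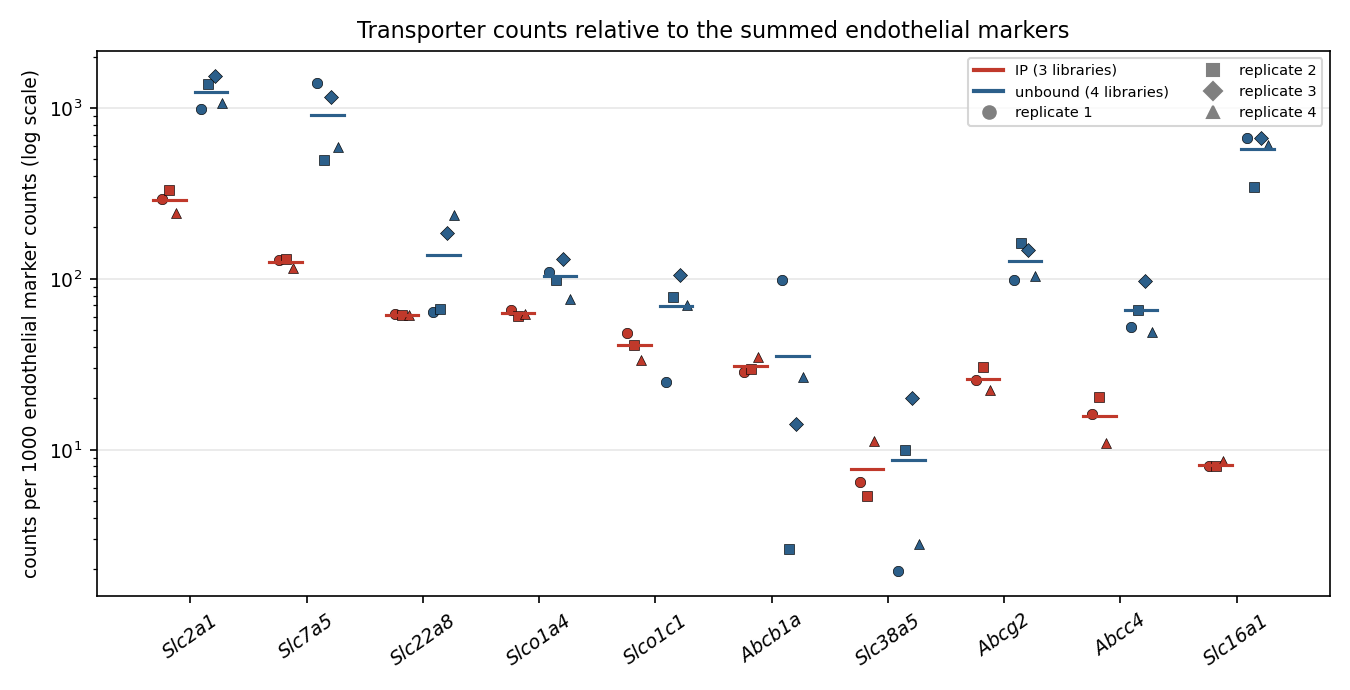
Counts of each transporter per 1000 counts of the 20 endothelial markers in the same library, IP (red, left) and unbound (blue), on a log axis, with group means as bars. In 7 of the 10 transporters every unbound library lies above every IP library, while the groups of Abcb1a, Slc38a5 and Slco1c1 overlap. The share of all genes separated in this way was not computed. In the fit scaled to these markers, 96.4% of all tested genes were called lower.

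The family relatives of the transporters did not move as a block. Of 9 relatives of Slc2a1, 3 were higher and 3 lower, with a median log2 fold change of 1.26. Over all tested genes, 20.5% were called higher and 18.9% lower. Slc2a3, the glucose carrier of neurons, had 19.2, 37.7 and 42.3 CPM in IP 1, 2 and 4, against 79.6, 63.2, 88.4 and 92.3 CPM in unbound 1 to 4. It fell by 1.29 on the log2 scale (adjusted p = 0.00619), opposite to Slc2a1, and it was not called within index ACAGTG (adjusted p = 0.0678). The fructose carrier Slc2a5, known from microglia, rose by 2.40 ± 0.44. The filter of 5 CPM in 3 libraries left 0 higher relatives of Slc2a1, and 1 was lower within index ACAGTG.

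Of 11 relatives of Slc16a1, 5 were higher and 1 lower, beside 20.5% and 18.9% of all tested genes. Slc16a4, an orphan member of the family, rose by 6.41 ± 0.47 (adjusted p = 4.0e-06), with 25.9 ± 1.68 CPM in IP and 0.303 ± 0.168 CPM in unbound. Slc16a7, the MCT2 gene of neurons, stood at -0.70 ± 0.32 on the log2 scale and was not called (adjusted p = 0.101). The lower count was 2 by DESeq2 and with the index covariate. Slc16a14 was the lower member, by -1.82 ± 0.46 (adjusted p = 0.01), and it lost its call without IP 2 (adjusted p = 0.0536). Slc16a1 had a smaller fold change than the 5 higher relatives, which follows largely from picking those 5 by their calls. Another 5 relatives were, like Slc16a1, not called. The differences were not tested.

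Among 18 tested relatives of Slc7a5 and Slc38a5, 5 were higher and 3 lower, with a median of -0.62. Both counts are near the shares over all tested genes, 20.5% higher and 18.9% lower. The glutamine carrier Slc38a3, known from astrocytes, rose by 2.48 ± 0.36 (adjusted p = 0.000392), and Slc7a7, a light chain that also pairs with 4F2hc, by 3.51 ± 0.38. Slc7a8, the LAT2 gene and the closest relative of Slc7a5 listed, had 43.5 ± 11.5 CPM in IP and 36.1 ± 6.72 CPM in unbound, a log2 fold change of 0.27 ± 0.26 (adjusted p = 0.431). The lysosomal Slc38a9 fell by 1.06 (adjusted p = 0.0154). The lower count was 0 without IP 1 or without IP 2, 1 without unbound 3, 5 without IP 4 or without unbound 2, 7 without both IP 4 and unbound 2, 5 with the index covariate and 6 by DESeq2.

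Of 15 tested relatives of the organic ion carriers, 1 was higher and 3 lower (1 lower within index ACAGTG). The lower count is near the share over all tested genes, 18.9%, while 20.5% of all tested genes were called higher. The higher was Slco2b1, another organic anion carrier of vessels, which rose by 4.83 ± 0.36 (adjusted p = 4.5e-06), with 101 ± 10.5 CPM in IP and 3.58 ± 1.42 CPM in unbound. Of 19 ABC relatives, 3 were higher, near the share over all tested genes, and 8 lower. Abcc9, the sulfonylurea receptor subunit that is also on the pericyte list, rose by 7.60 ± 0.66, and Abcc5 (-1.60 ± 0.27, adjusted p = 0.00102) and the cholesterol pump Abcg1 (-1.07 ± 0.35, adjusted p = 0.032) fell, against rises of Abcc4 and Abcg2. Abcg1 lost its call without IP 1, IP 2, unbound 1 or unbound 4 (adjusted p between 0.0565 and 0.138). The lower ABC count was 2 without IP 1, 3 without IP 2, 5 without unbound 1 or without unbound 4, 5 with the replicate block and 2 within index ACAGTG; the higher count was 1 with the filter of 5 CPM.

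**Figure D4:**
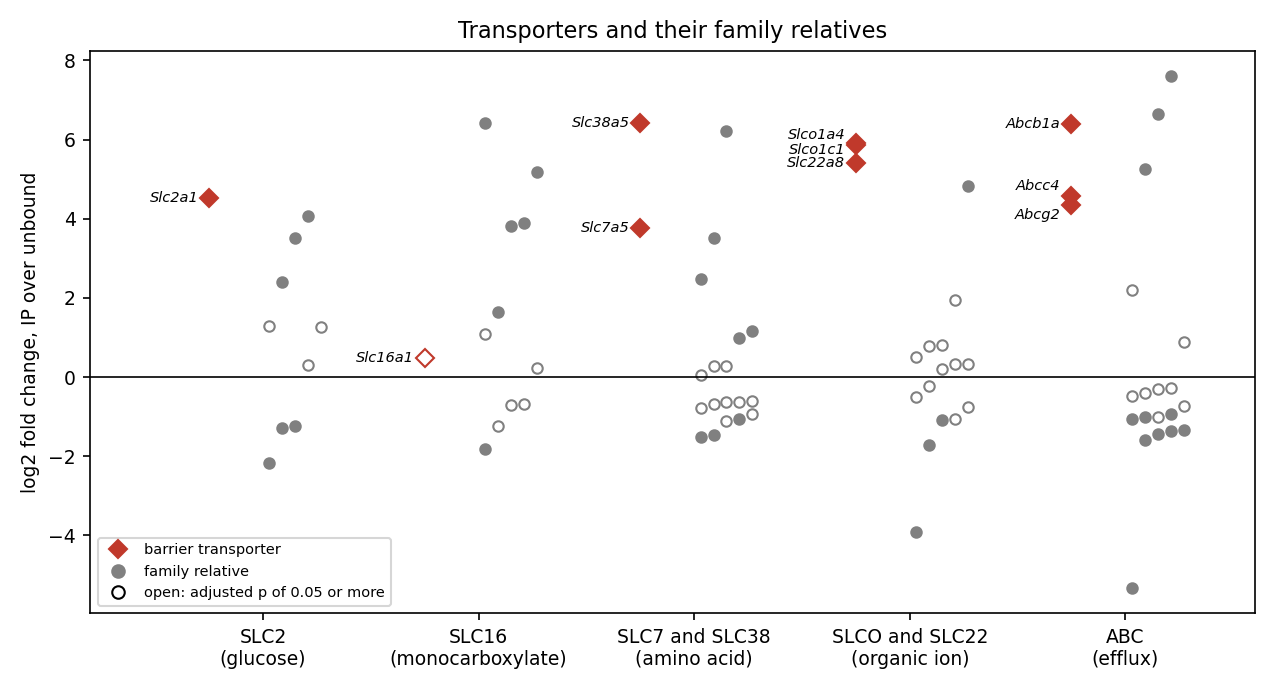
Log2 fold change of IP over unbound for the 10 transporters (red diamonds, named) and their tested family relatives (grey circles), by family; open symbols did not pass an adjusted p of 0.05. The SLCO and SLC22 transporters, at 5.41 to 5.91, stand above all of their 15 relatives. Slc16a1, at 0.48 and not called, lies below the 5 relatives of its family that were called higher. Those 5 are set apart here by their calls.

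A list of 28 other transporters and associated proteins reported from brain endothelium had 17 members higher and 3 lower, where 20.5% of all tested genes were called higher and 18.9% lower, with a median log2 fold change of 1.36; some of its members, such as Slc16a4, Slco2b1 and Abcc5, are also among the relatives. Slc52a3, a riboflavin carrier, had 59.3, 48.4 and 47.9 CPM in IP 1, 2 and 4, against 0.489, 0.223, 0.531 and 0.194 CPM in unbound 1 to 4. Its rise of 7.16 ± 0.41 on the log2 scale (adjusted p = 1.3e-06) was larger than that of any of the 10 transporters. The scaffold Slc9a3r2, which anchors membrane carriers, was the most abundant of the list (1345 ± 493 CPM in IP and 90.3 ± 16.4 CPM in unbound; log2 fold change 3.90 ± 0.32). Chosen after their values were seen, the thiamine carrier Slc19a3 rose by 6.79 and the lysolipid carrier Mfsd2a by 2.81, while the transferrin receptor Tfrc had -0.22 (adjusted p = 0.487). The lower count was 1 without IP 1, IP 2 or unbound 4, and 5 without both IP 4 and unbound 2. The related scaffolds of carriers, Slc9a3r1 (2.34 ± 0.25) and Pdzk1 (-0.01 ± 0.38, adjusted p = 0.989), were called higher and not called. Of the 6 partner proteins of the transporters, 4 were higher and 1 lower (0 lower without IP 1 or without IP 2).

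Wnt signalling through beta-catenin induces barrier properties in brain endothelium. A mixed list of 22 tested genes held members of this pathway, transcription factors known from barrier formation, and nuclear and xenobiotic receptors such as Nr3c1, Ppard, Nr1i3 and Ahr. Of these, 19 were higher in IP, where 20.5% of all tested genes were, with a median log2 fold change of 2.64. Foxq1, a forkhead factor, had 67.2 ± 15.3 CPM in IP and 0.501 ± 0.0434 CPM in unbound and rose by 7.06 ± 0.29. Ctnnb1, the beta-catenin gene, had 420 ± 66.0 CPM in IP and 284 ± 37.3 CPM in unbound (log2 fold change 0.56 ± 0.23, adjusted p = 0.0727); it was called by DESeq2 (adjusted p = 0.0378) and without both IP 4 and unbound 2 (adjusted p = 0.022).

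The genes most like the median profile of the 10 transporters over the 7 libraries were Heyl, S1pr3, Sod3, Rhobtb1 and Itpripl2. Likeness was the Euclidean distance between log2 CPM profiles centred on their means, over 12015 genes with a mean of at least 5 CPM. Heyl is a transcriptional repressor downstream of Notch, S1pr3 a receptor for sphingosine 1-phosphate and Sod3 the extracellular superoxide dismutase. Their distances were between 0.445 and 0.658. Of the transporters, Slc2a1 (0.786) and Abcc4 (0.823) were nearest to the median profile and Slc16a1 (5.93) and Abcb1a (4.64) farthest. The named genes were picked as the smallest of 12015 distances, so that they lie nearer than the transporters is no evidence of a shared profile. Their log2 fold changes ran from 4.78 for Rhobtb1 to 5.19 for Itpripl2, beside the median of 4.996 for the transporters.

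Promoter windows of Slc2a1, the most abundant transporter, and of Slc16a1, the transporter that was not called, are shown for contrast. The capitals mark matches to GGGCGG on either strand, a letter run that 32.7% of all 32851 windows hold.

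Slc2a1 (chr4:119108495-119108744, plus strand): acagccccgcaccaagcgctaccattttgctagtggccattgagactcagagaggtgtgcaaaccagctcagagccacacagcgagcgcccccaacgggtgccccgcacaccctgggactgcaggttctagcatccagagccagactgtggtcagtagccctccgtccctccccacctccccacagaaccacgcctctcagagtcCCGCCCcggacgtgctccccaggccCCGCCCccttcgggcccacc
Slc16a1 (chr3:104638414-104638663, plus strand): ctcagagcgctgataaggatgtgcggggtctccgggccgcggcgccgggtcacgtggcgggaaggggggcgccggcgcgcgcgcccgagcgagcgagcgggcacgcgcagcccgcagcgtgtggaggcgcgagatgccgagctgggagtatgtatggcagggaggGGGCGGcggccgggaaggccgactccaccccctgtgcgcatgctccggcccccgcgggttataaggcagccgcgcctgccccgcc

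The Slc16a1 window was 76.4% G and C and that of Slc2a1 66.4%, against a median of 52.4% over all windows, 42.8% for Slco1c1 and 39.2% for Slco1a4. GGGCGG was found for 5 of the 9 transporters with a window, ACGTG for 4 (16.6% of all windows hold it), GGAAG for 7 (64.1%), CCAAT for 2 (33.8%), TGTTTA for 2 (12%), CTTTGA for 1 (13.8%) and AACAAT for 1 (9.42%). TATAAA, which 12.4% of all windows hold, was in 0 of the 9. Where a gene had several windows, a match in any of them was counted, whereas the shares are of single windows. By single window, of 12, GGGCGG was in 6, ACGTG in 4, GGAAG in 9, CCAAT in 2 and TGTTTA in 2. CTTTGA was in 1, AACAAT in 1 and TATAAA in 0. The RefSeq starts behind the windows do not all match the gene starts given above. The Abcb1a window (chromosome 5, 8566841 to 8567090) lies far upstream of the gene start given above, 8660077. The Slc22a8 window (chromosome 19, 8592932 to 8593181) lies within the gene, and the Slc38a5 window (chromosome X, 8271131 to 8271380) almost wholly so. The Slc2a1 window ends a little past the gene start, 119108711. Abcg2 and Abcc4 also had windows within the gene.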

How the data were processed

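The authors deposited whole-number read counts per gene symbol for each library, without normalization. The submitters' processing notes name STAR 2.0.0e, HTSeq and mm10; which annotation and strand setting were used is not stated there. The 6 rows that name no gene were left out. Reads aligned to several places made up between 33.0% and 39.6% of all reads in IP and between 17.6% and 34.6% in unbound. Reads marked ambiguous made up between 1.43% and 1.63% in IP and between 7.26% and 11.5% in unbound. The effect of these differences on the fold changes was not tested.

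Low counts were dropped by filterByExpr of edgeR 4.0.16 (R 4.3.3) and libraries scaled by TMM. IP was compared with unbound by edgeR's robust quasi-likelihood test (two-sided), adjusted by Benjamini-Hochberg over all 17654 genes at 0.05. Standard errors are the log2 fold change divided by the root of F. The endothelial-scaled fit used the summed counts of 20 markers as library size. The fits were run on simulated counts, with the outcome not given here. For the endothelial-scaled fit the simulation raised all genes in IP and not the markers alone. It therefore did not test that fit at a rise of the markers over other genes. Coordinates and exon lengths are from GENCODE M21 (GRCm38, the build named mm10), and promoters from RefSeq.

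The members, the gene lists and the design were chosen with earlier results of these data known. Named were all 10 transporters, Stard8 and Rpl10a, all partners, preset relatives, per other list the gene of lowest p, the one of highest level and the first called against the majority, and the 5 nearest profiles. Genes of marker lists are given as counts. One gene that this rule names is not reported here. Alternatives were RLE scaling, library size only, 2 other filters, DESeq2 1.42.0, the replicate block, the index sequence, each index alone, and leaving out libraries; list counts were recomputed under these after seeing the data.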

Additional observations from a re-analysis of the deposited data

Results flagged for a closer look

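In the 4 unbound libraries, 80 sets of values were examined for a library far from the other 3, and 6 were marked; chance marks about 1 set in 20. Among the transporters it was Slc16a1, at 11.4 CPM in unbound 2, against 21.4 to 23.3 CPM in the other unbound libraries. Without unbound 2 its log2 fold change was 0.28 (adjusted p = 0.26). Unbound 2 was also the library in which erythroid markers (0.00552% of counts) and Hbb-bs (57.2 CPM) were highest. In unbound 3, oligodendrocyte markers took 0.772% of counts, S1pr3 had 5.83 CPM, and Slco1a5 had 0.038 CPM from 2 counts, with 0 counts in the other unbound libraries.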

How the results depend on the processing

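The number of transporters called higher in IP was 9 under all 17 alternatives, and each transporter kept the direction and the side of the threshold of its fold change; the fit within index GTGAAA holds 1 IP library and is no replicate check. Over all genes, 3622 were higher and 3328 lower. Within index ACAGTG these were 2190 and 1650, and leaving out single libraries gave between 2796 and 4050 higher and between 1751 and 3632 lower. IP and unbound libraries share replicate numbers, but the labels do not say whether libraries of the same number came from the same tissue. The main fit did not pair them. Correlations of the deviations were -0.03, 0.04 and 0.16 for numbers 1, 2 and 4. IP 2 and IP 4, but not IP 1, were closest to their own number. With so few libraries these values cannot decide whether the numbers mark pairs. With the replicate block the counts were 3154 and 2618, and Slc38a5 was 7.40 in place of 6.42. The transporters below the endothelial sum numbered 6, 5 with the replicate block, and between 5 and 7 without single libraries. Under the replicate block the relative values of Abcb1a and Slc38a5 were 0.51 and 0.95 in place of -0.21 and -0.17. Leaving out single libraries gave between -0.59 and 1.09 for Abcb1a and between -0.54 and 0.67 for Slc38a5. The difference in the endothelial share was 0.349 percentage points, between 0.331 and 0.383 without single libraries and 0.383 without IP 4 and unbound 2, where the smallest possible exact p was 0.0667 or 0.1. Pdzk1 (-0.01) was 0.0649 with library size only, 0.0647 with the replicate block, 0.0761 with the index covariate, 0.0654 within index ACAGTG, 0.111 within index GTGAAA, and between -0.198 and 0.196 without single libraries. Slc7a8 was -0.0648 without IP 4 and unbound 2. Rpl10a, 0.999 (adjusted p = 0.142), was 1.57 without unbound 2 (adjusted p = 0.0129). The cause was not tested. The few unbound counts of Abcb1a and Slc38a5 limit what their relative values can show.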
